A study of Mus musculus with 30 samples.

Results

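The Del(CBS1-3) allele of the mouse HoxD cluster, in which the CTCF binding sites named CBS1, CBS2 and CBS3 are mutated, was compared with WT in 11 of the 30 libraries of a ChIPmentation series. The libraries were chosen by their genotype labels. Del(CBS1-3) had 2 CTCF libraries and 2 RAD21 libraries, and WT had 3 CTCF libraries and 4 RAD21 libraries. Each antibody was compared separately. Together the 11 libraries held 485722 of the 1350341 peak entries of the series on the main chromosomes.

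All groups were embryonic trunk of strain B6CBAF1 at stage E10.5. Del(CBS1-3) embryos were homozygous, and WT embryos were control littermates from crosses of heterozygous parents. Embryos were dissociated one at a time and fixed with formaldehyde, and chromatin was tagmented on the beads after precipitation with an antibody against CTCF or RAD21. The labels give no batch, no sex, no number of embryos in a library and no statement of how many bases each mutation removes. They do not say how many founders the allele came from. A peak list holds no expression, so the trunk label could not be checked against marker genes. Nothing in the labels says whether replicate libraries came from separate litters, so p-values measure only the spread between these libraries.

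CTCF is a zinc finger protein that binds an oriented DNA motif, and cohesin is a ring-shaped complex that extrudes chromatin loops and is halted by CTCF. RAD21 is the kleisin subunit that closes the cohesin ring. The Hoxd genes encode homeodomain transcription factors that pattern the trunk and limbs, and they are switched on in the order in which they lie in the cluster. The cluster sits between a centromeric and a telomeric regulatory landscape, and its CTCF sites lie between and beside the genes.

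The labels do not give coordinates for CBS1 to CBS5. The sites were placed at the WT CTCF summits of the HoxD window whose presence over the 14 CTCF libraries departed least from the genotypes, with 5 library values off pattern in all. On mm10, CBS1 was at chr2:74715933, inside the RefSeq spans of Hoxd3 and its antisense RNA Hoxd3os1. CBS2 was at chr2:74702390, 613 bp from Gm38462 and in no gene span. CBS3 at chr2:74694237 and CBS4 at chr2:74691779 lay inside the span of Hoxd10, and CBS5 at chr2:74686497 lay in the overlapping spans of Hoxd10 and Hoxd11. Exons and introns were not separated. Without the 2 Del(CBS1-3) CTCF libraries, exchanging CBS3 and CBS4 left the fit unchanged at 3 values off pattern over 12 libraries. With them the exchange gave 9. Taken alone, CBS2 was tied among 3 sites without these libraries, but with the 5 names placed jointly any other place for it raised the total to 5 values off pattern, and any other place for CBS1 raised it to 7. CTCF presence at CBS3 and CBS4 in Del(CBS1-3) therefore set which site carries which name, and is given as a description, while RAD21 did not enter.

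Sequence of the build was at hand for promoter windows of RefSeq genes, which run from 250 bases before to 50 bases after a gene's start (assembly GRCm38.p6, the RefSeq form of mm10). The 3 windows of HoxD that held a CTCF summit on which a result turns are shown on their own strand, 5′ to 3′, with capitals for the 20 bases around the summit, or for the 11 that the Hoxd9 window still holds. The Hoxd10 window, chr2:74691641-74691940 on the plus strand, holds the WT summit of CBS4, which had the largest rank difference among the window sites with a peak in every Del(CBS1-3) and WT library. The Hoxd3os1 window, chr2:74716081-74716380 on the minus strand, holds the summit of the CTCF peak found beside CBS1 in Del(CBS1-3) replicate 1. The Hoxd9 window, chr2:74697513-74697812 on the plus strand, ends on the summit of the Del(CBS1-3) replicate 1 peak that covers the CTCF site gained in HoxD. The gained site itself, at chr2:74697982, lies beyond the window.
Hoxd10: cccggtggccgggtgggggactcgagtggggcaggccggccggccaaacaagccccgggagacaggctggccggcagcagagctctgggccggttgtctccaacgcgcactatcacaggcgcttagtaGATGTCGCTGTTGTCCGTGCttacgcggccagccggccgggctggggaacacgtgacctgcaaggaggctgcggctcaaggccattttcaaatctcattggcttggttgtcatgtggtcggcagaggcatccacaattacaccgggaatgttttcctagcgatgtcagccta
Hoxd3os1: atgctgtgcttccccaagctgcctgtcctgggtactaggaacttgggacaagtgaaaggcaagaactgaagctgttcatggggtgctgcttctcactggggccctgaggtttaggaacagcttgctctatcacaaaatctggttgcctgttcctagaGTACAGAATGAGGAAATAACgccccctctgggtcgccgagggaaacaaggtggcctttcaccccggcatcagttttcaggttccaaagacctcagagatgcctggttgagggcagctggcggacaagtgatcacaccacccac
Hoxd9: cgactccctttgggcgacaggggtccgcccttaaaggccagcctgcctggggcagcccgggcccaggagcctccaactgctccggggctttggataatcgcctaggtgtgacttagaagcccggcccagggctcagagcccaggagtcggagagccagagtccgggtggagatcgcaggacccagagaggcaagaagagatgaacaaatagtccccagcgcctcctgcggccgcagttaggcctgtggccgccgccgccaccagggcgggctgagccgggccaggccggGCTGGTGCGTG
A 12-base core of the CTCF motif (CCA, 2 bases of any kind, AG, 2 bases of any kind, GGC), searched on both strands, occurred in none of the 3 windows and in 796 of 32817 RefSeq promoter windows of the same length (2.43%). Only exact matches were counted, so sequence close to this core was missed, and its absence does not show that a window lacks a CTCF motif. The share among windows that hold a CTCF peak was not counted. GC content was 62.7% in the Hoxd10 window, 54.0% in the Hoxd3os1 window and 68.3% in the Hoxd9 window.

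The values are the authors' fold enrichment at each peak summit, relative to the surrounding background in that library. Peaks were called library by library, so a fold is read as a rank inside its own list. Read depth was unknown. The CTCF lists held 72244 and 40011 entries in Del(CBS1-3) replicates 1 and 2, and 52925, 57271 and 75027 in the WT replicates. The second Del(CBS1-3) CTCF list was the shortest of the 14. The RAD21 lists held 34406 and 25579 entries in Del(CBS1-3) and between 22449 and 39841 in the 4 WT libraries. All lists were cut by the caller near a q of 0.05.

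At the mutated sites, CTCF was absent or had a lower fold than in every WT library. CBS3 had no CTCF peak in either Del(CBS1-3) library, against folds of 9.41, 7.29 and 8.04 in the WT libraries. CBS2 had a fold of 3.46 in Del(CBS1-3) replicate 1 and no peak in replicate 2, against 19.1, 14.2 and 11.5 in WT. CBS2 was among the strong WT sites, at the 96.9th, 94.0th and 60.4th percentile of the sites common to these CTCF libraries, and stood at the 1.54th percentile in Del(CBS1-3) replicate 1. CBS1 had a peak of fold 6.92 over the WT summit position in Del(CBS1-3) replicate 1 and none in replicate 2, against 18.4, 12.5 and 14.2 in WT. At all 3 sites both Del(CBS1-3) libraries were below every WT library, though at CBS3 this followed from the naming, which used CTCF presence in these libraries. The share of all CTCF sites with this order was not counted.

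RAD21 was absent or weak at CBS1 and CBS2. CBS1 had no RAD21 peak over its summit in either Del(CBS1-3) library, against folds of 15.2, 13.7, 11.8 and 17.8 in the WT libraries. It was the strongest of all RAD21 sites that were missing from both Del(CBS1-3) libraries anywhere in the genome. CBS2 had a RAD21 fold of 2.85 in Del(CBS1-3) replicate 1 and no peak in replicate 2, against 9.95, 8.82, 10.0 and 10.47 in WT. The mean RAD21 percentile at CBS1 was 0 in Del(CBS1-3) and 94.6 ± 4.47 in WT (SD, n = 2 and 4). At CBS2 it was 0.146 ± 0.206 in Del(CBS1-3) and 66.1 ± 10.3 in WT. The groups did not overlap at either site, a separation whose share over all RAD21 sites was not counted. An exact permutation test over libraries (2-sided) gave p = 0.0667 at CBS1 and at CBS2, the smallest value that 2 against 4 libraries allow, so neither could pass 0.05. CBS3 had no RAD21 peak in any Del(CBS1-3) or WT library, so only CTCF could be compared there. On presence alone, Fisher's exact test (2-sided) over RAD21 libraries gave p = 0.0667 at CBS1 and 0.333 at CBS2.

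**Figure D1:**
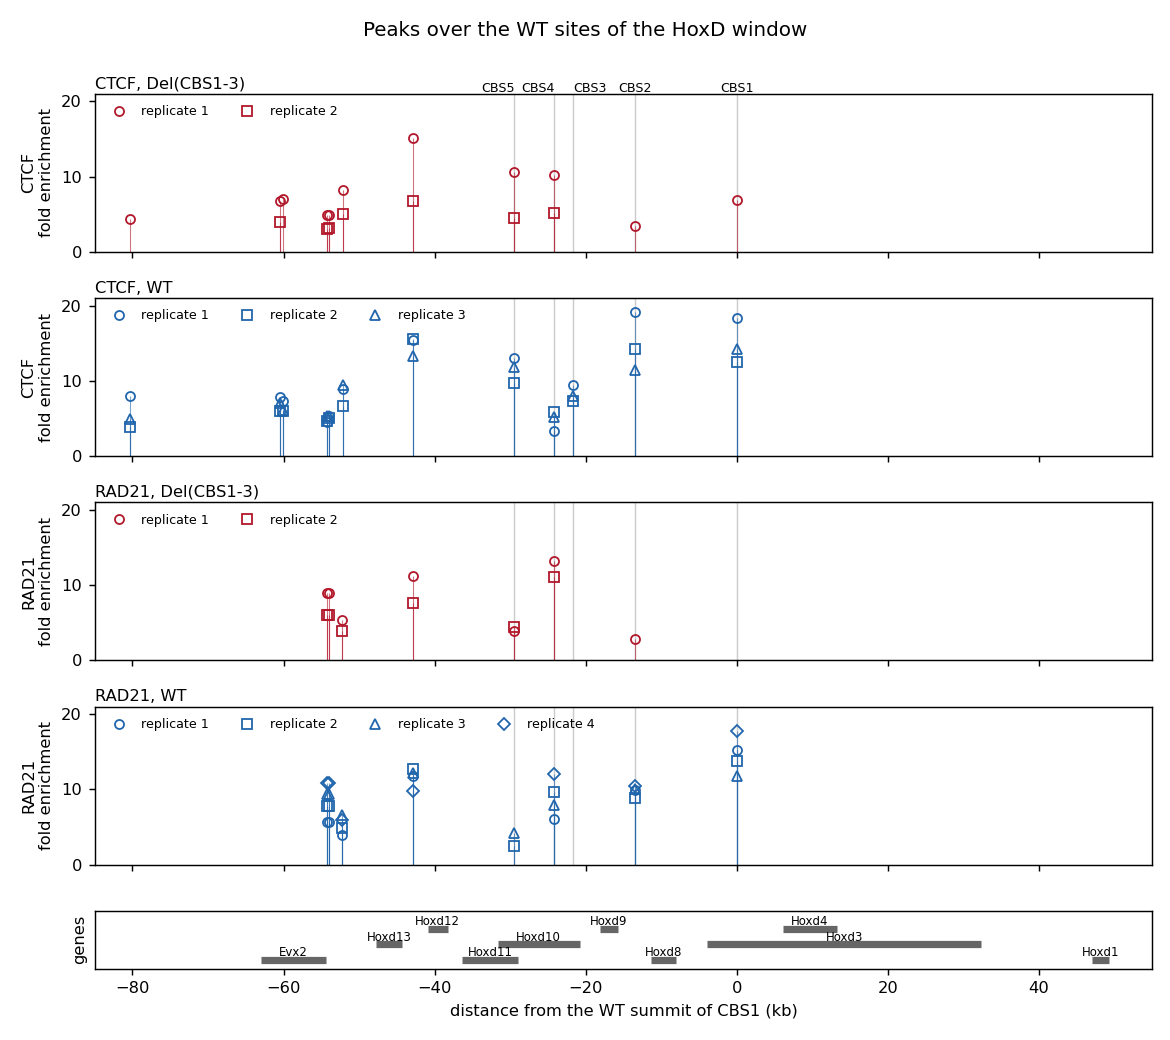
Fold enrichment of CTCF and RAD21 peaks (y axis) at the WT sites of the HoxD window against distance from the WT summit of CBS1 in kb (x axis), with 1 symbol per library and gene spans in the lowest panel; a library without a symbol at a site had no peak over it. In Del(CBS1-3), CBS3 had no CTCF peak, CBS1 had no RAD21 peak, and CBS4 had folds of 10.2 and 5.14 for CTCF and 13.1 and 11.1 for RAD21.

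Both Del(CBS1-3) libraries had a CTCF peak beside CBS1, with its summit to one side of the WT summit. In Del(CBS1-3) replicate 1 it lay 280 bp from the WT summit of CBS1, with a fold of 6.92 and a −log10 q of 22.7. In replicate 2 it lay 318 bp away, with a fold of 2.84 and a −log10 q of 2.18, and it did not reach the WT summit. The WT summits were within 39 bp of the CBS1 position, and the WT peaks ended between chr2:74716419 and chr2:74716422, so both Del(CBS1-3) summits lay inside the stretch that the WT peak covered. Every one of the 10 CTCF libraries with CBS1 mutated, from 5 alleles, had a summit between 213 and 424 bp from CBS1, with folds of 2.84 to 7.58. All 10 summits fell inside the Hoxd3os1 promoter window printed above. Del(CBS2), which keeps CBS1, had its summit 32 bp away with a fold of 17.6.

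Among CTCF peaks that still covered the WT position, a summit over 200 bp away was rare. Among CTCF sites whose WT summits all lay within 100 bp of the site and that had a peak over the site, 54 of 43698 (0.124%) had their nearest summit over 200 bp away in Del(CBS1-3) replicate 1, and 104 of 34143 (0.305%) in replicate 2. A peak that no longer reached the WT position was not counted. The CBS1 peak of replicate 2 was such a peak, so the share for replicate 2 does not cover it. RAD21 had 1 small peak there, with a summit 367 bp from CBS1, a fold of 2.49 and a −log10 q of 1.92 in Del(CBS1-3) replicate 1. Replicate 2 had none within 500 bp. Whether this CTCF signal was present in WT under the larger CBS1 peak was not tested.

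**Figure D2:**
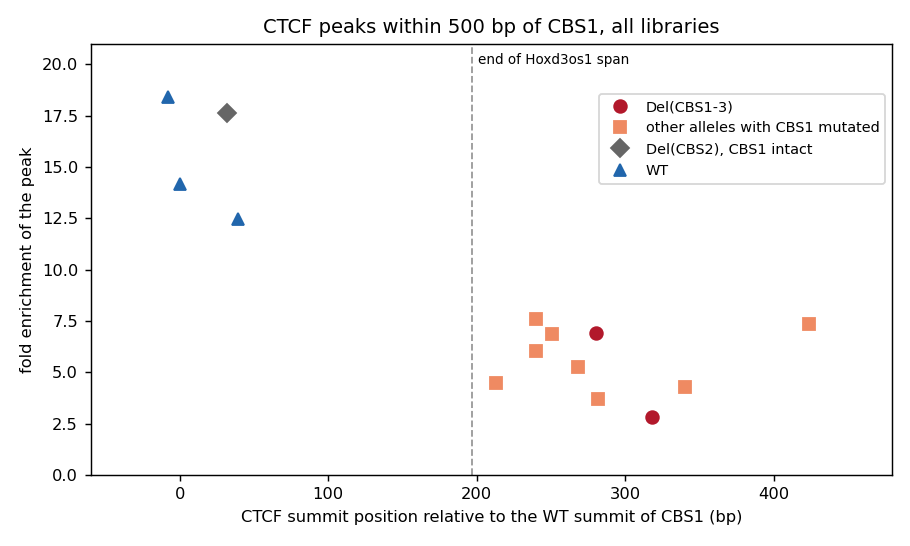
CTCF peaks within 500 bp of CBS1 in all 14 CTCF libraries: fold enrichment (y axis) against the summit's position relative to the WT summit in bp (x axis). The 10 libraries with CBS1 mutated sit between 213 and 424 bp with folds of 2.84 to 7.58, and the 2 Del(CBS1-3) points are at 280 and 318 bp, away from the WT points near 0.

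CBS4, the nearest site that Del(CBS1-3) keeps next to CBS3, ranked above every WT library in both Del(CBS1-3) libraries, for both proteins. CTCF at CBS4 had folds of 10.2 and 5.14 in Del(CBS1-3), against 3.39, 5.85 and 5.21 in WT. The 5.14 of Del(CBS1-3) replicate 2 was below the folds of WT replicates 2 and 3, but it ranked higher in its own list. As percentiles of the 35473 sites with a peak in all these CTCF libraries, CBS4 stood at 58.8 and 39.0 in Del(CBS1-3), against 1.06, 21.6 and 7.60 in WT. Both Del(CBS1-3) libraries were above the highest WT library. RAD21 at CBS4 had folds of 13.1 and 11.1 in Del(CBS1-3), against 6.09, 9.67, 7.92 and 12.1 in WT. Its RAD21 percentiles among 18534 common sites were 93.7 and 92.1 in Del(CBS1-3), against 32.0, 68.2, 53.8 and 69.3 in WT, again without overlap. Only 10 splits of the CTCF libraries and 15 of the RAD21 libraries exist. The share of all common sites separated in this way was not counted.

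The CTCF percentile at CBS4 averaged 48.9 ± 14.0 in Del(CBS1-3) and 10.1 ± 10.52 in WT, a difference of 38.8 (SD, n = 2 and 3). An exact permutation test gave p = 0.1, the smallest that 2 against 3 libraries allow. The name CBS4 went to the site with a CTCF peak in both Del(CBS1-3) libraries, so this CTCF test is not independent of that choice. The choice used presence and not fold. The RAD21 percentile averaged 92.9 ± 1.11 in Del(CBS1-3) and 55.8 ± 17.4 in WT, a difference of 37.1, with p = 0.133 by the exact test (SD, n = 2 and 4). Adjusted over the 4 tests of CBS4 and CBS5, both exact p-values were 0.178.

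Across all sites, limma on normal scores of the ranks put CBS4 near the top without passing the threshold. A normal score turns the rank of a site inside its list into a value on a standard normal scale, so that lists of different lengths can share a fit. The CTCF difference at CBS4 was 1.48 ± 0.40 (SE), with an unadjusted limma p of 0.00145 and an adjusted p of 1.00. It was the 37th highest of 35473 differences, and 3 of the 2695 CTCF sites tested on chromosome 2 were higher. The RAD21 difference was 1.32 ± 0.30, with an unadjusted limma p of 0.000161 and an adjusted p of 0.497. It was the 12th highest of 18534, and 1 of 1454 on chromosome 2 was higher.

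Within 10 Mb of CBS1 on chromosome 2, no CTCF difference among 285 sites was above that at CBS4, and the next was 1.01. Among 156 RAD21 sites, the site inside the spans of Scn9a, a sodium channel gene of sensory neurons, and Gm13629 was above it, at 1.68 ± 0.40. Its adjusted limma p was 0.693.

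**Figure D3:**
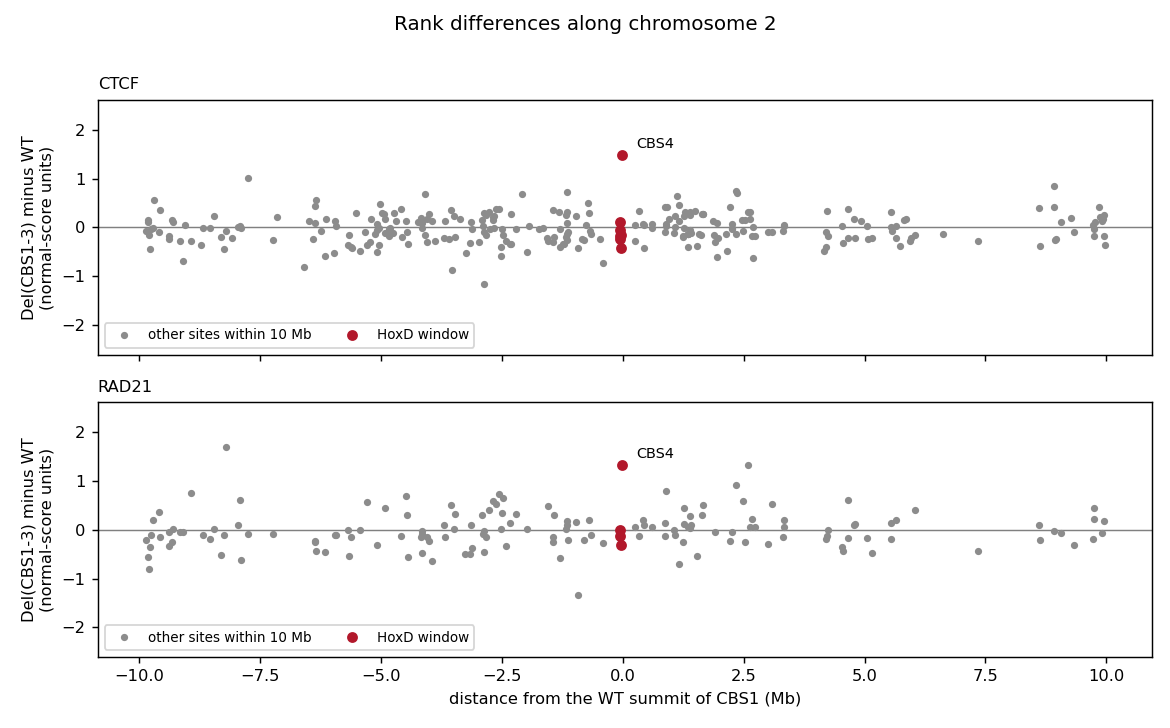
Difference in normal score between Del(CBS1-3) and WT (y axis) for each CTCF and RAD21 site within 10 Mb of CBS1 against distance in Mb (x axis); red points lie in the HoxD window. CBS4 stands at 1.48 for CTCF and 1.32 for RAD21, and the other sites run between −1.15 and 1.01 for CTCF and between −1.35 and 1.68 for RAD21.

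The alleles that mutate fewer sites and keep CBS4 allowed a comparison in which no WT value is tested. WT libraries still defined the sites and the set over which they were ranked. Ranked over the sites found in every CTCF library, CBS4 stood at 53.2 and 31.6 in Del(CBS1-3). It stood at 17.3 in the Del(CBS1-2) library, at 21.1 in the Del(CBS2) library and at 8.85, 1.91 and 7.59 in the Del(CBS1) libraries. Del(CBS1-3) averaged 42.4 ± 15.3 and the other 3 alleles 11.3 ± 7.74 (SD, n = 2 and 5), a difference of 31.1. Both Del(CBS1-3) values were above all 5 others, an order whose share over all CTCF sites was not counted. The exact permutation test gave p = 0.0476, the smallest it allows, and an adjusted p of 0.190 over 4 such tests. These Del(CBS1-3) libraries also set, by CTCF presence, which site is named CBS4, so the test is not independent of that choice.

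For RAD21 the other alleles were already high at CBS4. Del(CBS1-3) stood at 91.0 and 88.8, Del(CBS1-2) at 72.6 and 87.3, Del(CBS2) at 82.2 and Del(CBS1) at 91.4, 68.4 and 71.7. The means were 89.9 ± 1.55 in Del(CBS1-3) and 78.9 ± 9.36 in the other alleles (SD, n = 2 and 6), with an exact p of 0.214 and an adjusted p of 0.429. The groups overlapped.

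**Figure D4:**
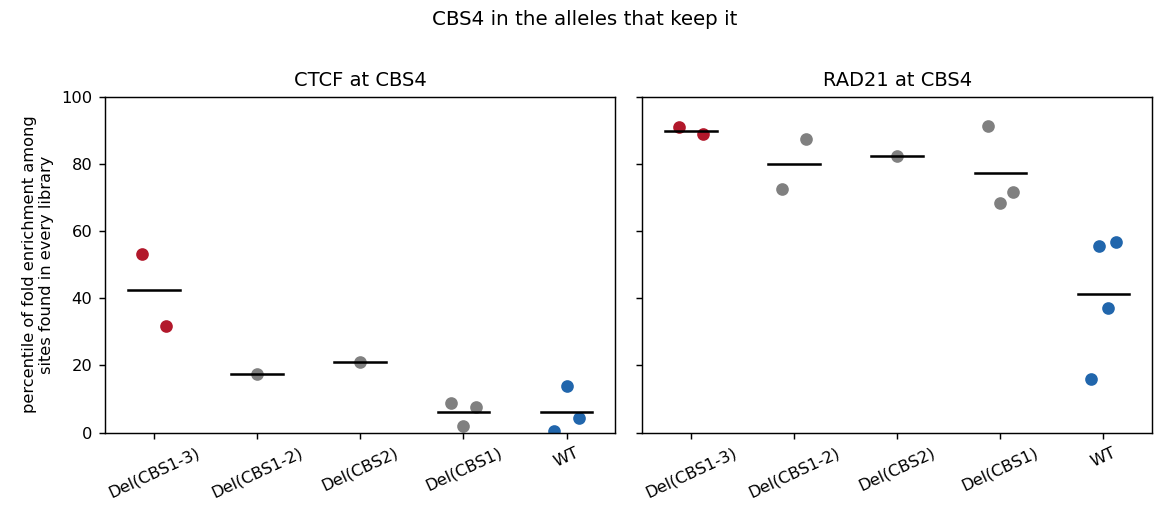
Percentile of fold enrichment at CBS4 (y axis) for CTCF and RAD21 in each library of the alleles that keep CBS4 (x axis), ranked over the sites with a peak in all libraries of that antibody; points are libraries and bars are means. For CTCF the Del(CBS1-3) libraries are at 53.2 and 31.6, above every other library; for RAD21 they are at 91.0 and 88.8, among the other mutant alleles and above the WT libraries.

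At CBS5, the other of the 5 sites that the allele keeps, the CTCF values of the groups overlapped. CTCF at CBS5 had folds of 10.7 and 4.54 in Del(CBS1-3), against 13.0, 9.66 and 11.8 in WT. The percentiles were 63.2 and 28.7 in Del(CBS1-3), against 61.1, 61.2 and 63.4 in WT. Replicate 1 was among the WT libraries and replicate 2 below them. The exact permutation p was 0.3, and the limma difference was −0.42 ± 0.30 with an adjusted p of 1.00. RAD21 at CBS5 was weak, with folds of 3.84 and 4.46 in Del(CBS1-3), against no peak in 2 WT libraries and 2.41 and 4.25 in the others. Its percentile averaged 7.91 ± 6.79 in Del(CBS1-3) and 1.96 ± 3.85 in WT (exact permutation p = 0.133, adjusted 0.178). Against the other mutant alleles that keep it, CBS5 gave exact p-values of 0.972 for CTCF and 0.778 for RAD21. The means there were 39.8 ± 26.0 in Del(CBS1-3) and 39.2 ± 19.6 in the others for CTCF, and 2.68 ± 3.00 in Del(CBS1-3) and 3.26 ± 4.41 in the others for RAD21 (SD, n = 2 and 7 for CTCF, 2 and 8 for RAD21).

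The rest of the WT sites of the window lay toward Hoxd13 and Evx2. The strong CTCF site 1493 bp from Hoxd13, the gene at the posterior end of the cluster, had folds of 15.2 and 6.76 in Del(CBS1-3), against 15.4, 15.5 and 13.3 in WT. Its percentiles of 95.4 and 62.5 in Del(CBS1-3) straddled the 79.4 and 75.8 of WT replicates 1 and 3, with 97.6 in WT replicate 2. RAD21 there had folds of 11.1 and 7.66 in Del(CBS1-3), against 11.7, 12.7, 12.1 and 9.73 in WT. Neither limma difference was larger than its error, at −0.16 ± 0.47 for CTCF and −0.32 ± 0.34 for RAD21.

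Inside Gm31790, a predicted gene next to Evx2, 3 CTCF sites and 2 RAD21 sites had a peak in every library. The strongest of the CTCF sites, at chr2:74663755, had folds of 8.22 and 5.08 in Del(CBS1-3), against 8.90, 6.65 and 9.39 in WT. The RAD21 site at chr2:74661981 had folds of 8.88 and 6.06 in Del(CBS1-3), against 5.71, 7.79, 9.38 and 10.8 in WT. In Evx2, a homeobox gene at the edge of the cluster, the CTCF site at chr2:74655517 had folds of 6.80 and 3.94 in Del(CBS1-3), against 7.82, 6.01 and 7.05 in WT. The limma differences of these 3 were 0.11 ± 0.30, −0.01 ± 0.33 and −0.06 ± 0.33. Del(CBS1-3) values overlapped WT values in rank at these 3, and also at the CTCF site at chr2:74661718 and the RAD21 site at chr2:74663707. At the CTCF site at chr2:74661969 the percentiles of 7.15 and 5.15 in Del(CBS1-3) were below the 7.48, 13.6 and 8.05 of WT (limma difference −0.23 ± 0.35). How many of all sites had this order was not counted. A second Evx2 site, at chr2:74655823, and a site at chr2:74635596 had a peak in Del(CBS1-3) replicate 1 and none in replicate 2, the short list. Their folds were 7.07 and 4.34 in Del(CBS1-3) replicate 1, against 6.01 to 7.34 and 3.82 to 7.94 in WT.

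Loss was counted for sites with a peak in every WT library and in no Del(CBS1-3) library. In the window this held for 1 of 12 CTCF sites, CBS3, against a background of 0.634% of the 47658 WT CTCF sites. It held for 1 of 6 RAD21 sites, CBS1, against 0.623% of the 20061 WT RAD21 sites. CBS1 and CBS2 were left out of the CTCF count because a peak of Del(CBS1-3) replicate 1 covered each WT position. At CBS1 that peak had its summit 280 bp away. CBS2 was left out of the RAD21 count in the same way. Without replicate 1, 5 CTCF sites and 2 RAD21 sites of the window were missing. Over the genome, 12137 of 47658 CTCF sites and 1422 of 20061 RAD21 sites were missing under that setting. The 5 CTCF sites included the unmutated sites at chr2:74655823 and chr2:74635596.

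A gained site was covered in Del(CBS1-3) replicates 1 and 2 and in no WT library, which held for 0.4% of 39273 CTCF sites and 0.704% of 23449 RAD21 sites. The window held 1 gained CTCF site, at the start of Hoxd9, and 0 gained RAD21 sites. The CTCF peak had its summit at chr2:74697812 in Del(CBS1-3) replicate 1, with a fold of 4.88 and a −log10 q of 16.8. In replicate 2 the summit was at chr2:74697982, with a fold of 2.33 and a −log10 q of 1.63, just above the caller's limit. The gained site was this replicate 2 summit, which the replicate 1 peak also covered. The replicate 2 peak began at chr2:74697865 and did not cover the replicate 1 summit. WT replicate 3 had a peak of fold 1.89 with its summit at chr2:74697792, and WT replicates 1 and 2 had none. The WT replicate 3 peak ended at chr2:74697840. It thus covered the summit of Del(CBS1-3) replicate 1 but ended short of the gained site. Among the other alleles a peak at this start was listed in 0 of 3 Del(CBS1) libraries, the 1 Del(CBS2) library, 0 of 1 Del(CBS1-2), 1 of 2 Del(CBS1-4) and 2 of 2 Del(CBS1-5) libraries, with folds of 2.44 to 6.66. RAD21 had no peak there in any library of the series. The capitals at the end of the Hoxd9 window printed above are the bases up to the replicate 1 summit.

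Outside the window, the sites on both sides of HoxD had no limma call and no lost site. Over all sites, 0.634% of CTCF and 0.623% of RAD21 sites were lost. Limma called 0.00564% of CTCF and 0% of RAD21 sites tested. The absence of both in so few sites therefore does not set the flanks apart. Between Atp5g3 and Evx2, on the centromeric side, 8 of 14 WT CTCF sites had a peak in all these libraries and could be tested, with differences from −0.73 to 0.49 and a median of −0.10. The lowest was in the lncRNA gene 4930441J16Rik, with folds of 11.8 and 6.90 in Del(CBS1-3), against 16.3, 13.9 and 15.3 in WT (−0.73 ± 0.30). Its ranks in Del(CBS1-3) were below every WT rank, an order whose share over all sites was not counted. The highest was 20293 bp from Gm31472, at 0.49 ± 0.29. The 4 RAD21 sites of that side ran from −0.27 to 0.20, with the 2 largest sizes in 4930441J16Rik (−0.27 ± 0.29) and 12823 bp from Atp5g3, a subunit gene of the mitochondrial ATP synthase (−0.21 ± 0.35).

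Between Hoxd1 and Hnrnpa3, on the telomeric side, 13 of 20 CTCF sites were tested, with a median of 0.06 and values from −0.41 to 0.43. The 2 largest were 2394 bp from Gm39858 (0.43 ± 0.34) and in Gm50595 (0.42 ± 0.32). All 8 RAD21 sites of that side were tested, with a median of 0.07. The highest RAD21 difference there was in Gm50595, with folds of 13.7 and 13.2 in Del(CBS1-3), against 12.1, 12.4, 11.4 and 13.8 in WT (0.80 ± 0.29, adjusted limma p 1.00). Its percentiles were 95.6 and 98.2 in Del(CBS1-3), above 82.1 to 90.0 in WT, an order that was also not counted over all sites. The next, in 2600014E21Rik, was 0.19 ± 0.28.

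Over the genome, 302 WT CTCF sites were lost and 157 CTCF sites were gained, and 125 RAD21 sites were lost and 165 gained. Most of the losses were at weak sites. The mean WT fold had a median of 4.18 at the lost CTCF sites and 8.40 over all WT CTCF sites, and 4.26 at the lost RAD21 sites and 7.89 over all. The weakest quartile of WT sites held 263 of the 302 lost CTCF sites and 117 of the 125 lost RAD21 sites. The strongest quartile held 2 of each, and CBS1 was 1 of the 2 for RAD21. By distance, 0 of 41 CTCF sites and 0 of 14 RAD21 sites beyond 100 kb and within 1 Mb of HoxD were lost. On other chromosomes 0.640% of CTCF sites and 0.649% of RAD21 sites were lost.

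Detection of WT sites differed between the Del(CBS1-3) libraries. CTCF replicate 1 had a peak over 99.3% of WT CTCF sites and replicate 2 over 74.5%. In the weakest quartile the shares were 97.6% in replicate 1 and 32.2% in replicate 2. For RAD21 they were 98.9% in replicate 1 and 92.9% in replicate 2 over all sites. Without replicate 1, the lost sites numbered 12137 for CTCF and 1422 for RAD21. With each list cut to the same number of top peaks, which left fewer WT sites, 320 of 35120 CTCF sites and 120 of 17450 RAD21 sites were lost.

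**Figure D5:**
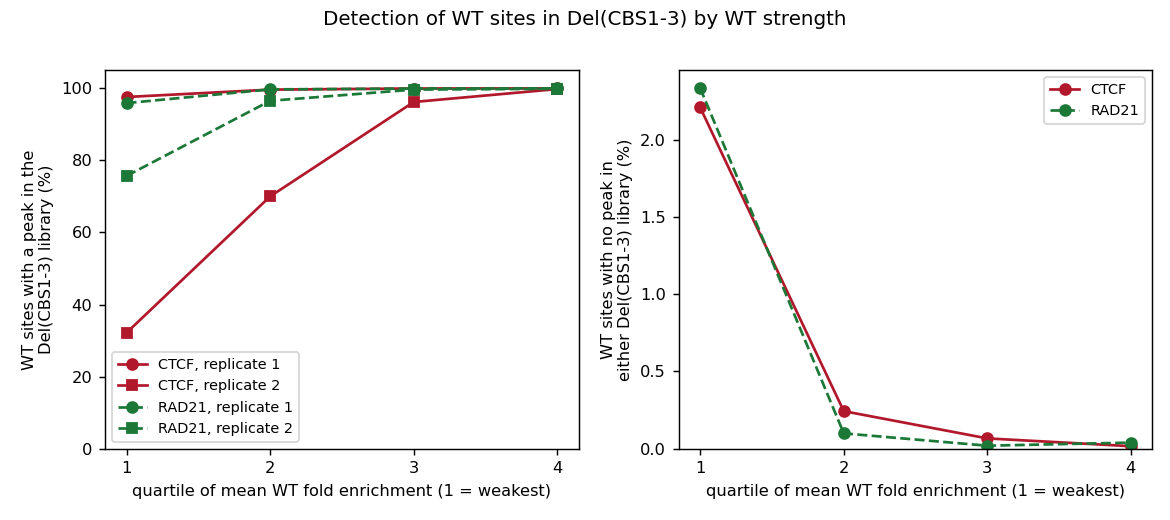
Left, share of WT sites with a peak in each Del(CBS1-3) library (y axis, %) by quartile of mean WT fold enrichment (x axis); right, share of WT sites with no peak in either library. The weakest quartile of CTCF sites was covered to 97.6% by replicate 1 and 32.2% by replicate 2, and held 263 of the 302 lost sites.

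Most of the lost sites had a peak in some, but not all, libraries of the longer alleles, which mutate CBS1 to CBS3 as well. Of the 302 lost CTCF sites, 270 had a peak in at least 1 of the 4 Del(CBS1-4) and Del(CBS1-5) libraries 19 had one in all 4 (6.29%), and 32 had none (10.6%), among them CBS3. Over all 47658 WT CTCF sites, 81.3% had a peak in all 4 and 0.279% in none. Of the 125 lost RAD21 sites, 115 had a peak in at least 1, 8 had one in all 4 (6.4%) and 10 had none (8%), among them CBS1. Over all 20061 WT RAD21 sites, 72.1% had a peak in all 4 and 0.244% in none. Of the 157 gained CTCF sites 124, and of the 165 gained RAD21 sites 119, had a peak in at least 1, while 4 of the gained CTCF sites and 1 of the gained RAD21 sites had one in all 4. These libraries are not part of the comparison with WT.

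The lost CTCF sites with the highest mean WT fold lay 231 bp from Olfr1069-ps1, an olfactory receptor pseudogene (13.9), in Mid1-ps1 on chromosome Y (11.99), in Lrriq1 (11.4), 24235 bp from Gm40665 (10.9) and in Lrrtm4, which encodes a synaptic adhesion protein (9.54). Their WT folds differed widely between libraries, from 4.50 to 24.4 at Mid1-ps1 and from 2.88 to 17.1 near Gm40665. Each had a peak in 1 or 2 of the 4 longer-allele libraries. After CBS1, the lost RAD21 sites with the highest mean WT fold lay 17173 bp from Sephs1 (10.97), in Catsper2, a sperm calcium channel gene (8.74), 101 bp from Gm10060 (7.82) and 28855 bp from Gm6207 (6.60). These 4 had a peak in 2 or 3 of the longer-allele libraries.

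The gained CTCF sites with the highest mean Del(CBS1-3) fold lay 28997 bp from Gm25038 (9.60), in Fbxw7, a ubiquitin ligase gene (9.42), 37684 bp from Snhg14 (9.08), 29353 bp from Gm30588 (8.94) and 219 bp from Gm31328 (8.88). At each the 2 libraries were far apart, as with 3.86 and 14.99 at Fbxw7. The gained RAD21 sites with the highest mean lay 9038 bp from Gm1720 (8.12), in Drc1, a gene of the ciliary dynein regulatory complex (7.29), 21928 bp from Eya4 (7.21), in Nbea (7.19) and in Efcab7 (7.17).

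Lost sites of the 2 proteins were mostly different places. The lists shared 1 site, near Ltbp1, which was 0.331% of the lost CTCF sites and 0.8% of the lost RAD21 sites, within 150 bp. A WT RAD21 site lay at 4 of the 302 lost CTCF sites (1.32%), and at 41.2% of all WT CTCF sites. Promoter windows held 3 of the lost CTCF sites (0.993%) and 3.25% of all WT CTCF sites, and 13 of the lost RAD21 sites (10.4%) and 3.27% of all WT RAD21 sites.

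limma called 2 CTCF sites (0.00564% of 35473), both higher in Del(CBS1-3), and 0 lower, with 964 sites under an unadjusted p of 0.05, where evenly spread p-values would give 1774. Without Del(CBS1-3) replicate 1 there were 14 higher and 15 lower calls, and without replicate 2 there were 4 higher and 1 lower. Of the 2 calls made with all libraries, 1 lay 14055 bp from Gm21811 on chromosome 8. It had folds of 26.2 and 15.03 in Del(CBS1-3), against 15.1, 9.29 and 6.75 in WT, a difference of 3.34 ± 0.42 in normal score (adjusted limma p 0.0197). This site near Gm21811 reached folds of 23.8 in 1 Del(CBS1) library and 27.5 in the Del(CBS2) library, and had no peak in the other Del(CBS1) libraries and in 1 Del(CBS1-4) library. Its adjusted limma p was 0.121 without Del(CBS1-3) replicate 1 and 0.155 without replicate 2. RAD21 had 0 calls in 18534 sites by limma (0%), with 730 under an unadjusted p of 0.05, against 927 for evenly spread p-values, and a smallest adjusted p of 0.196. The median difference over all sites was 0.003 for each protein.

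Gene lists, taken within 5000 bp of a gene body, had no limma call in either direction, beside 0.00564% of all CTCF and 0% of all RAD21 sites tested. The HoxD list itself had 7 tested CTCF sites with a median of −0.16 and 4 RAD21 sites with a median of −0.07, in which CBS4 was the highest. Beside a median of 0.003 over all CTCF sites, the 15 tested CTCF sites of the HoxA, HoxB and HoxC clusters had a median of −0.24, with 5 above 0 and 10 below. The largest of them in size was in Hoxb5os, with folds of 14.9 and 4.75 in Del(CBS1-3), against 16.9, 13.8 and 13.6 in WT (−0.55 ± 0.57). Without Del(CBS1-3) replicate 2 the value in Hoxb5os was 0.44. The 9 RAD21 sites of these clusters had a median of 0.04, and the largest, 432 bp from Hoxb8, was 0.53 ± 0.28.

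In the imprinted domains 27 CTCF sites had a median of 0.02 and 18 RAD21 sites a median of 0.10. The CTCF site in Snhg14 and Snrpn, the Prader-Willi domain, had folds of 3.52 and 3.16 in Del(CBS1-3), against 4.51, 9.51 and 11.7 in WT (−1.50 ± 0.60, adjusted limma p 1.00). The adjusted limma p there was 0.0143 without WT replicate 1, which was close to the Del(CBS1-3) libraries. RAD21 at Gnas, which encodes a G protein subunit, was −0.55 ± 0.39. In the protocadherin clusters, whose promoters CTCF is known to bind, 3 of 37 WT CTCF sites were lost (0.634% over all CTCF sites), 19 could be tested, and their median was 0.05. The 9 RAD21 sites there had a median of 0.09.

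Among neural tube genes, 15 CTCF sites had a median of 0.05 and 6 RAD21 sites a median of 0.03. Nkx2-2, a ventral neural tube regulator, had the largest value of each, 0.57 ± 0.48 for CTCF and 0.57 ± 0.29 for RAD21. The CTCF value at Nkx2-2 was −0.28 without Del(CBS1-3) replicate 2. Among somite and muscle genes, 11 CTCF sites had a median of −0.14, with Myod1, the muscle determination gene, at 0.63 ± 0.38. Their 4 RAD21 sites had a median of −0.01, with the sclerotome gene Pax1 at −0.71 ± 0.39, and 0.03 without Del(CBS1-3) replicate 2. Limb and lateral plate genes had medians of −0.10 over 12 CTCF sites and −0.14 over 9 RAD21 sites. Gli3, a mediator of Hedgehog signalling, stood at −0.69 ± 0.32 for CTCF and Tbx18 at −0.76 ± 0.47 for RAD21.

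For endoderm and liver genes the medians were 0.16 over 12 CTCF sites and −0.24 over 7 RAD21 sites. At Afp, the fetal liver protein gene, CTCF stood at −0.96 ± 0.35. Heart genes had medians of 0.10 over 8 CTCF sites and 0.57 over 6 RAD21 sites, with 7 of the CTCF sites and 5 of the RAD21 sites above 0. Of the 7 RAD21 sites of endoderm and liver genes, 1 was above 0. Over all sites tested, 50.4% were above 0 for each protein. Mef2c stood at 0.84 ± 0.37 for CTCF. At Tnnt2, cardiac troponin T, RAD21 had folds of 6.01 and 4.78 in Del(CBS1-3), against 4.12, 3.54, 4.45 and 4.95 in WT (0.88 ± 0.43, adjusted limma p 1.00). Blood genes had medians of 0.11 over 8 CTCF sites and −0.12 over 3 RAD21 sites, with Klf1, an erythroid regulator, at 0.36 ± 0.31 for CTCF and −0.23 ± 0.31 for RAD21. The RAD21 value at Klf1 was 0.14 without Del(CBS1-3) replicate 2.

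The share of RAD21 peaks that lay at a WT CTCF site was 81.5% and 93.0% in Del(CBS1-3), against 95.4%, 77.6%, 84.6% and 80.8% in WT. The means were 87.3 ± 8.07% in Del(CBS1-3) and 84.6 ± 7.74% in WT (SD, n = 2 and 4), with an exact permutation p of 0.8. The shortest list of each genotype had its highest share. Both Del(CBS1-3) values lay inside the WT range.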

How the data were processed

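CTCF and RAD21 ChIPmentation peak lists of 11 libraries were analysed, with the other 19 lists of the series used to place CBS1 to CBS5 and for the alleles named. The members and gene lists were chosen with earlier results of these data known. The build was mm10 and the caller MACS2 2.1.1.20160309, per the submitters' processing notes, which also name Bowtie2 2.3.5, cutadapt 1.16, bedtools 2.27.1, Picard 2.19.0 and SAMtools 1.9; options are not given in the sources used here. The authors deposited 1 list per library, with a fold enrichment (a ratio), a −log10 p and a −log10 q for each summit, and a display score that was not used. Depth was unknown, and no count test was possible.

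Summits of the WT libraries no more than 150 bp apart were joined, and a WT site had a peak over its median summit in every WT library. A peak covering that position detected the site. The HoxD window ran 20000 bp beyond Evx2 and Hoxd1. Folds were ranked within a library over sites found in all libraries compared, turned into normal scores and tested in R 4.3.3 by limma 3.58.1 (robust, with trend; Benjamini-Hochberg, 0.05). Percentiles were tested by exact permutation in Python 3.11.15 with numpy 2.4.6, and Fisher's exact test used scipy 1.17.1. The code was tested on simulated data.

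Sites named in the text were all WT and gained sites of the window, up to 4 per flank and antibody by size (2 were taken), up to 10 limma calls (1 of the 2 CTCF calls is not reported here), the 5 strongest lost and gained sites, and up to 3 per gene list within 5000 bp of a gene body, of which 1 was taken. The Scn9a and Ltbp1 sites were named after their values were seen. The libraries share replicate numbers that the labels do not tie to a litter or day, and with 2 pairs they were treated as unpaired. Alternatives changed the detection rule, the caller threshold, list length, the measure ranked, the sites and libraries in the fit, and left out each library in turn. A CTCF motif search at the summits needed a genome of the build and was not run.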

Additional observations from a re-analysis of the deposited data

Results flagged for a closer look

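In 22 groups of 4 WT RAD21 libraries examined at the window sites and summary measures, 2 had a library far from the other 3; chance gives about 1 in 20. At the site near Hoxd13 the lowest WT library stood at a percentile of 48.8, and the others between 85.9 and 91.5. At CBS5 the highest WT library stood at 7.74, and the others between 0 and 0.108. Groups of 2 or 3 libraries, Del(CBS1-3) among them, were too small for this rule.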

How the results depend on the processing

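Depth is unknown and the lists differ in length, so presence calls of weak peaks are limited most. The CTCF sites lost in the window numbered 1, and 2 with a summit required within 100 bp, with a −log10 q of at least 10 or with equal numbers of top peaks. The RAD21 count there, 1, was 2 under the last 2 settings and 0 when any peak base within 250 bp counted, since the small peak of Del(CBS1-3) replicate 1 lies that near. In the same order (summit, q, equal lists), gained CTCF sites were 280, 4 and 253, and 58 with any base within 250 bp. Lost CTCF sites were 964 (summit), 112 (q) and 2281 (WT site in 2 WT libraries), lost RAD21 sites 233, 60 and 4292, and gained RAD21 sites 268 (summit) and 12 (q). The cause was not tested beyond what each rule changes.

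Limma calls for CTCF were 1 with ranks of −log10 p, 1 with centred log2 folds, 0 without the weakest 25% of sites, 0 with all genotypes fitted, and 5 with the replicate number as a block; the RAD21 calls, 0 without the block, were 5 with it. Both CTCF calls were among the 5. The site near Gm21811 had an adjusted limma p of 1.00 with −log10 p and with log2 folds. Deviations of same-numbered libraries correlated at −0.06 and 0.08 for CTCF and −0.08 and −0.06 for RAD21. The RAD21 difference at CBS5 against other alleles was 10.8 when ranked over sites of at least 2 WT libraries, against −0.58, and the RAD21 share difference was −0.020 with equal lists, against 2.65.

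Values near 0 changed sign: CTCF at Evx2 (0.064 with −log10 p, 0.022 with log2), Gm31790 at 74661718 (0.13, 0.12) and 74661969 (0.047, 0.036), and RAD21 at Gm31790, 74661981 (0.016 with −log10 p, 0.0091 without the weakest, 0.34 with the block) and 74663707 (0.26 with the block).

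Leaving out each library in turn, the CBS4 differences kept their sign, with ranges of 28.9 to 48.7 (CTCF against WT), 20.3 to 41.9 (CTCF, other alleles), 29.1 to 41.6 (RAD21, WT) and 8.85 to 13.4 (RAD21, other alleles). At CBS5 they were −33.2 to 1.28, −17.8 to 18.96, 1.15 to 10.7 and −2.71 to 1.54. Lost CTCF sites ran from 350 to 12137, gained from 206 to 7334, lost RAD21 sites from 162 to 1422 and gained from 175 to 3383; the highest lost counts came without Del(CBS1-3) replicate 1 and the highest gained without replicate 2. In the window CTCF losses ran from 1 to 5 and RAD21 losses from 1 to 2. Limma calls ran from 2 to 29 (CTCF; 29 without Del(CBS1-3) replicate 1, 19 without WT replicate 1, 14 without WT replicate 2 and 5 without Del(CBS1-3) replicate 2) and from 0 to 1 (RAD21). The RAD21 share difference ran from −3.05 (without Del(CBS1-3) replicate 2) to 8.36. For single sites that changed sign, CTCF ran from −0.17 to 0.029 at Evx2, −0.36 to 0.00080 at Gm31790 (74661718), −0.84 to 0.48 near Hoxd13, −0.87 to 0.028 at CBS5, −1.58 to 0.44 in Hoxb5os and −0.28 to 1.42 at Nkx2-2. RAD21 ran from −0.30 to 0.27 and −0.44 to 0.19 at the Gm31790 sites, −1.46 to 0.032 at Pax1, −0.60 to 0.14 at Klf1 and −0.40 to 0.073 near Atp5g3. Over all alternatives, 386 single-site values kept their direction and side of the threshold, 25 changed sign, 6 lost a call and 1 gained one. Of the summary values, 11 differences changed sign and 50 counts moved by more than 1.5 times or away from 0, while 113 did neither.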
